A study of Homo sapiens with 6 samples.

Results

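Messenger RNA levels of 10 genes of the endoplasmic reticulum (ER) unfolded protein response were examined in SW480 cells, a line established from a human colon adenocarcinoma, with and without knockdown of RBM39, a splicing factor that binds RNA. The genes are HSPA5, HSP90B1, PDIA4, SDF2L1, CALR, CANX, ERN1, XBP1, HERPUD1 and DNAJB9, taken as a named list of ER chaperone and stress response genes, and they make up 10 of the 56303 gene symbols in the deposited count table. The series holds 6 libraries, 3 from SW480 cells carrying a nonsilencing hairpin (shCtrl, labelled wild type) and 3 from SW480 cells carrying a hairpin against RBM39 (shRBM39). Both groups were infected with lentivirus, selected with puromycin and grown in the same medium with fetal bovine serum, and no ER stress agent is named for either. The stable lines are described as clonal and a single hairpin is labelled per group, so the hairpin, the clone and the loss of RBM39 cannot be told apart in the comparison. The study's methods describe the 3 libraries of a group as replicate experiments and do not say whether infections were separate, so p-values measure the spread between experiments on these lines.

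The ER folds proteins that are secreted or placed in membranes. When unfolded protein builds up, 3 sensors in the ER membrane respond: IRE1 (gene ERN1), an RNase that cuts the XBP1 mRNA so that it is spliced into the form coding for an active transcription factor, ATF6, which is cleaved in the Golgi to release a transcription factor, and PERK (gene EIF2AK3), a kinase that slows translation and favours synthesis of ATF4. Their targets are chaperones and folding enzymes on one hand and the machinery of ER-associated degradation (ERAD), which passes misfolded protein to the proteasome, on the other. HSPA5, also known as BiP, is both the main chaperone of the ER lumen and the partner that holds the sensors inactive, and its mRNA is a common readout of the response.

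Total counts per library ran from 18042924 to 20428901, so that 3 counts, taken as the floor of detection, correspond to 0.147 to 0.166 counts per 1000000 counts of a library (CPM), for counting error alone. RBM39 itself was at 441, 448 and 435 CPM in shCtrl and 266, 276 and 292 CPM in shRBM39, so that it fell by 37% (log2 fold change -0.67 ± 0.04 SE, edgeR adjusted p = 1.24e-16). CPM are given here on library sizes scaled by the trimmed mean of M-values (TMM). Of 8 epithelial markers, 7 had at least 10 counts in every library, whereas the intestinal factor CDX1 had 0 to 2 counts. Their summed level, on library totals, was 12302 to 12945 CPM in shCtrl and 14168 to 14641 CPM in shRBM39. The rise was carried mostly by KRT8 (7024 to 7383 and 8781 to 9083 CPM). On the same scale KRT18 was also higher in shRBM39 (2968 to 3169 and 3272 to 3410 CPM), and EPCAM and KRT19 overlapped between groups. CDX2 (22.2 to 23.5 and 4.43 to 5.34 CPM), CDH1 (92.7 to 93.8 and 63.3 to 66.7 CPM) and VIL1 (714 to 727 and 605 to 636 CPM) were lower in shRBM39. Of 8 markers of leukocytes, fibroblasts, endothelium and liver, 5 had at least 10 counts in every library, with a summed 27.8 to 28.2 CPM in shCtrl and 31.8 to 36.4 CPM in shRBM39, and the leukocyte marker PTPRC was at 0 in all libraries. CD68 made up most of that sum and overlapped between groups, whereas COL1A1 (5.63 to 5.92 and 7.96 to 10.2 CPM), PECAM1 (2.92 to 4.17 and 5.09 to 5.97 CPM) and VWF (0.494 to 0.665 and 1.09 to 1.66 CPM) were higher in shRBM39 and low in both groups. Mitochondrial transcripts took 6.9% to 7.28% of the counts in shCtrl and 7.33% to 8.22% in shRBM39. The part of these shifts in the results on the 10 genes was not tested, and in bulk RNA fewer cells of a kind and less RNA per cell cannot be told apart.

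Promoters of ER chaperone genes are known for the ER stress response element (ERSE), CCAAT and CCACG separated by 9 unspecified bases, where ATF6 binds together with the factor NF-Y, and for the shorter ERSE-II, ATTGG and CCACG separated by 1 base. Both were searched for on both strands in RefSeq promoter windows of GRCh38.p14, from 250 bases before to 50 bases after each annotated start. All 10 genes had a window, 15 in all, and 7 of the 10 genes held a match. ERSE was found in 27 of 34943 distinct windows (0.0773%) and in windows of 5 of the 10 genes, and ERSE-II in 19 windows (0.0544%) and in 2 of the 10 genes. A gene counted if any of its windows matched, so shares of windows and counts of genes, here and below, have unlike units. The 8 matches are shown because these elements are known from promoters of ER chaperone genes, although not all of the 10 genes hold one. Since the elements are known from genes of this kind, the counts beside the shares of windows are a description and no test of enrichment. Each stretch is written 5′ to 3′ in the orientation of the element, with the element in capitals and 5 flanking bases on each side in lower case.
HSPA5, ERSE, chr9:125241386-125241414, minus strand: cttcaCCAATCGGCGGCCTCCACGacggg
HSP90B1, ERSE, chr12:103930211-103930239, plus strand: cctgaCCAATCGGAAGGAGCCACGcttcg
HSP90B1, ERSE, chr12:103930316-103930344, minus strand: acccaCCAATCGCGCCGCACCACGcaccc
CALR, ERSE, chr19:12938379-12938407, minus strand: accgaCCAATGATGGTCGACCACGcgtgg
CANX, ERSE, chr5:179698773-179698801, plus strand: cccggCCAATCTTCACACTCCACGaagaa
XBP1, ERSE, chr22:28800598-28800626, minus strand: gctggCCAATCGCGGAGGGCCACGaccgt
SDF2L1, ERSE-II, chr22:21642109-21642129, minus strand: ttttgATTGGTCCACGcttcc
HERPUD1, ERSE-II, chr16:56932020-56932040, plus strand: cgccgATTGGGCCACGttggg

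The element lay 48 to 66 bases upstream of the start of HSPA5 and 34 to 52 bases upstream of that of XBP1, on the strand of the gene in both. In HSP90B1 an element on the gene's strand lay 176 to 194 bases upstream and another on the opposite strand 71 to 89 bases upstream. The element of CALR lay 207 to 225 bases upstream and that of SDF2L1 178 to 188 bases upstream, each on the opposite strand. Those of CANX and HERPUD1, on the genes' strand, lay 133 to 151 and 107 to 117 bases upstream, for CANX counted from the first listed of its 4 starts with a window. The stretches of HSP90B1 and CANX fall inside exons that the count table lists for these genes, whose longest annotated transcripts start further upstream, and the others fall outside the listed gene. ERN1, DNAJB9 and PDIA4 had no match of either element in their windows. CCACG on its own, which is part of both elements, was in 38.1% of all windows and in those of 9 of the 10 genes, and the core of the unfolded protein response element bound by XBP1, TGACG followed directly by TGG, was in 0.73% of windows and in none of the 10 genes. A match is a description of these letters and does not show binding, and a window without one says nothing about the factor.

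**Figure D1:**
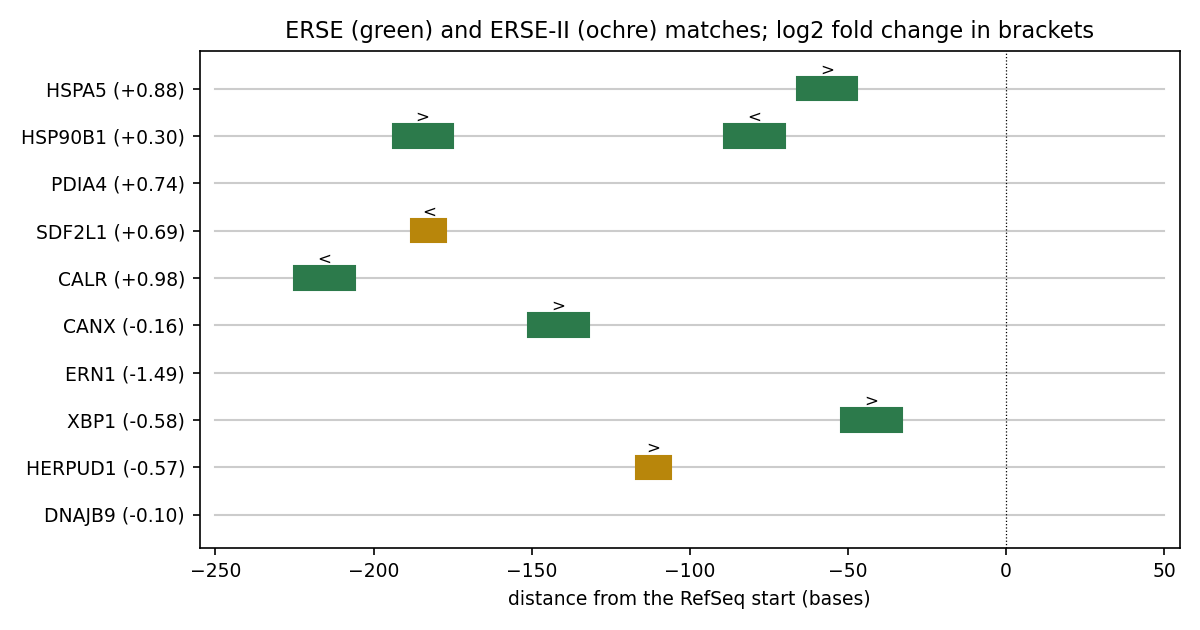
Positions of the ERSE (green) and ERSE-II (ochre) matches in the promoter windows of the 10 genes, as distance in bases from the RefSeq start (dotted line at 0), with an arrowhead for the strand (> on the gene's strand, < on the opposite strand) and the log2 fold change of shRBM39 over shCtrl in brackets. Matches are present both in genes that were higher in shRBM39, such as HSPA5 at 0.88, and in genes that were lower, such as XBP1 at -0.58.

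Most chaperones of the list rose, and its regulatory genes ERN1 and XBP1 fell. In shRBM39, mRNA of the lumenal chaperones and folding enzymes HSPA5, HSP90B1, PDIA4, SDF2L1 and CALR rose, by 1.23-fold (HSP90B1) to 1.97-fold (CALR), whereas the sensor ERN1, the transcription factor XBP1, the ERAD component HERPUD1 and the membrane chaperone CANX fell, and ERN1 fell by 64.5%, the most among these. DNAJB9, a co-chaperone of HSPA5, did not pass the test. All 10 genes passed the filter on low counts, and 9 of the 10 passed an adjusted p of 0.05 in edgeR's quasi-likelihood test, 5 higher and 4 lower in shRBM39. Over all 18243 tested genes 59.1% passed, 29.2% higher and 29.9% lower, so a member that passed was not out of the ordinary. Higher genes made up 49.4% of all calls with TMM and 33.9% with library totals alone, whereas the split of the 10 genes stayed 5 to 4. In 9 of the 10 genes the shCtrl and shRBM39 libraries were fully separate, as they were in 63.3% of all tested genes. The median log2 fold change of the 10 genes was 0.10, against -0.01 for all tested genes, and it was -0.02 with library totals alone in place of TMM, a scaling that moves the median of all genes by -0.124. When the null was a log2 fold change of up to 0.5 in either direction, 5 members passed, with HSP90B1, XBP1, HERPUD1 and CANX no longer among them. Of the 7 genes with an ERSE or ERSE-II match, HSPA5, HSP90B1, SDF2L1 and CALR were higher and XBP1, HERPUD1 and CANX lower in shRBM39.

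**Figure D2:**
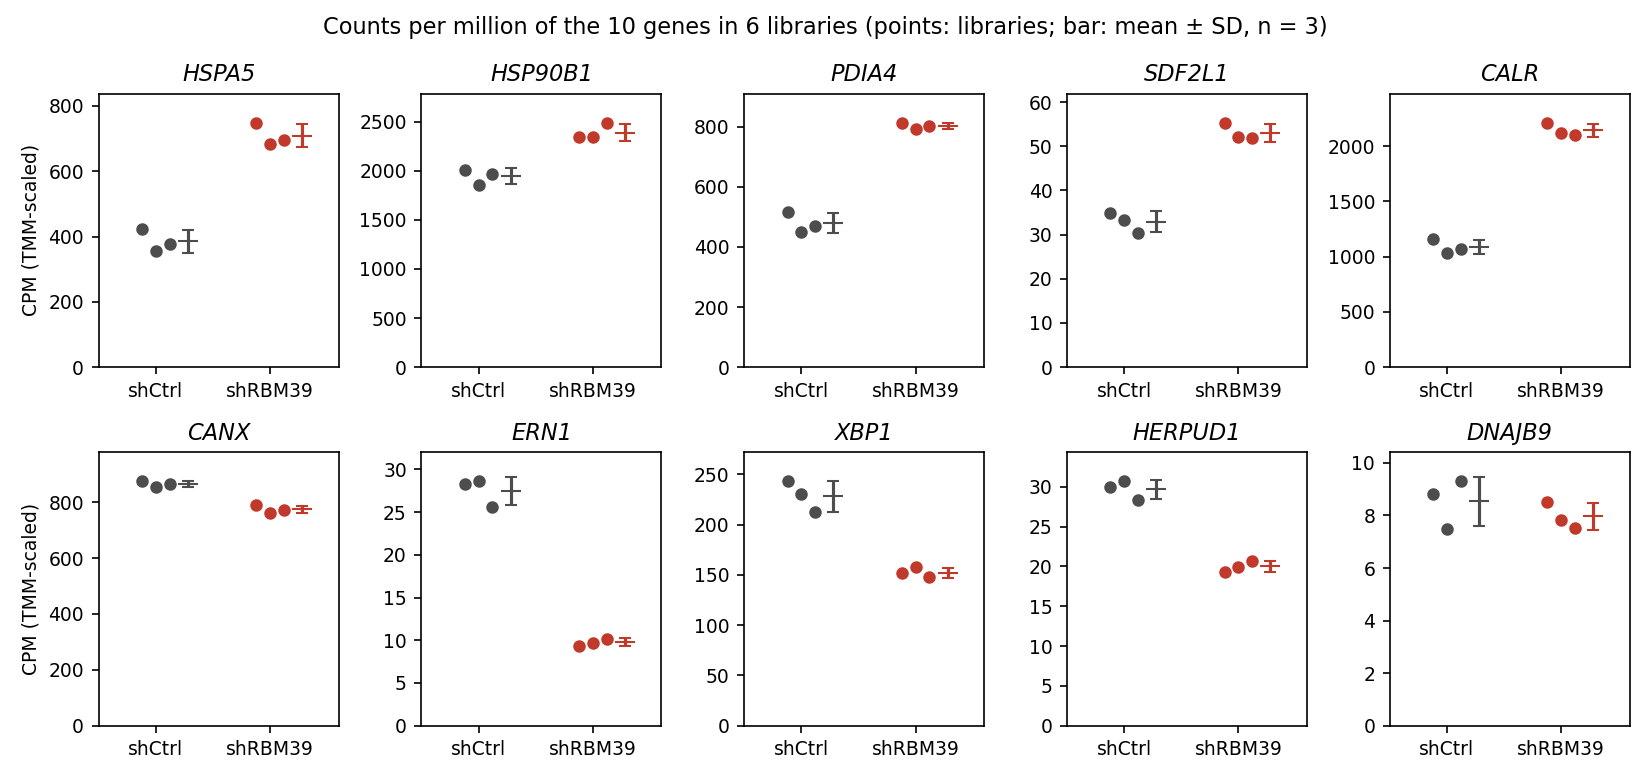
CPM of each of the 10 genes in the 6 libraries (vertical axis from 0, TMM-scaled, scaled separately for each gene), with points for libraries and bars for the mean ± SD of 3 libraries per group. The points of the groups do not overlap in any gene other than DNAJB9, where shCtrl ran from 7.49 to 9.3 CPM and shRBM39 from 7.54 to 8.52 CPM.

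Among the lumenal chaperones, HSPA5 (chromosome 9, 125234853 to 125241330, minus strand, GRCh38) was at 422, 355 and 377 CPM in shCtrl replicates 1, 2 and 3, and at 748, 684 and 694 CPM in shRBM39 replicates 1, 2 and 3. The lowest shRBM39 library was thus well above the highest shCtrl library. The means were 385 ± 34.1 and 709 ± 34.6 CPM (SD, n = 3 each), a 1.84-fold rise (log2 fold change 0.88 ± 0.05 SE, edgeR adjusted p = 7.91e-18), and 90.9% of all tested genes changed less in either direction. HSPA5 encodes an Hsp70 of the ER, which binds hydrophobic stretches of chains that enter the lumen.

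HSP90B1, the Hsp90 of the ER (also known as GRP94, chromosome 12, 103930107 to 103953645, plus strand), had 2009, 1855 and 1968 CPM in shCtrl and 2339, 2340 and 2488 CPM in shRBM39. Per length it was among the most abundant of the 10 genes, and it rose least among those that rose, 1.23-fold (log2 fold change 0.30 ± 0.04 SE, edgeR adjusted p = 3.64e-08). With library totals alone its log2 fold change was 0.17, still past the threshold. A smaller change than that of HSP90B1 was seen in 49.7% of all tested genes, so its size was near the middle of the table.

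PDIA4, a protein disulfide isomerase that forms and rearranges disulfide bonds (chromosome 7, 149003062 to 149028641, minus strand), was at 517, 451 and 471 CPM in shCtrl and 813, 791 and 802 CPM in shRBM39. The rise was 1.67-fold (log2 fold change 0.74 ± 0.04 SE, edgeR adjusted p = 4.27e-17), and the shRBM39 libraries lay closer together, at 802 ± 11 CPM, than those of shCtrl, at 480 ± 33.6 CPM (SD, n = 3 each). SDF2L1 is a small ER-resident protein found in complexes with HSPA5 and its co-chaperones (chromosome 22, 21642261 to 21644298, plus strand). Its mRNA was at 35, 33.2 and 30.4 CPM in shCtrl and 55.3, 52 and 51.8 CPM in shRBM39. The change of 1.61-fold (log2 fold change 0.69 ± 0.05 SE, edgeR adjusted p = 1.92e-13) was close to that of PDIA4, although SDF2L1 rested on far fewer counts.

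CALR and CANX encode calreticulin and calnexin, related lectin chaperones that bind the same glucosylated sugars on new glycoproteins, the former soluble in the lumen and the latter anchored in the membrane. Their mRNAs moved in opposite directions. CALR (chromosome 19, 12938578 to 12944489, plus strand) was at 1160, 1031 and 1072 CPM in shCtrl and 2211, 2122 and 2103 CPM in shRBM39, a 1.97-fold rise (log2 fold change 0.98 ± 0.04 SE, edgeR adjusted p = 1.39e-20) and the largest increase among the 10 genes. CANX (chromosome 5, 179678628 to 179730925, plus strand) was at 875, 853 and 864 CPM in shCtrl and 789, 763 and 774 CPM in shRBM39. It fell by 10.2% (log2 fold change -0.16 ± 0.04 SE, edgeR adjusted p = 0.000356), a small change, and the groups were nonetheless separate, at 864 ± 10.8 and 775 ± 13.3 CPM (SD, n = 3 each). With library totals alone its log2 fold change was -0.28. The exons of CALR share 270 bases, 9.95% of their length, with CTC-425F1.4 on the opposite strand, and the strand setting of the counting is not given in the sources used here, so the 2 genes' reads may not be fully separate.

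The mRNAs of both core components of the IRE1 branch were lower. ERN1, the gene of the IRE1 sensor (chromosome 17, 64039142 to 64130819, minus strand), was at 28.3, 28.6 and 25.6 CPM in shCtrl and 9.34, 9.7 and 10.2 CPM in shRBM39. This 2.82-fold decrease (log2 fold change -1.49 ± 0.07 SE, edgeR adjusted p = 2.53e-18) was the largest change of the 10 genes in either direction, and 98.1% of all tested genes changed less. On the log2(RPKM + 1) scale, which compresses genes of low level, its value was -0.97, with the call unchanged. XBP1 (chromosome 22, 28794555 to 28800597, minus strand) was at 243, 230 and 212 CPM in shCtrl and 152, 158 and 148 CPM in shRBM39. It fell by 33.2% (log2 fold change -0.58 ± 0.04 SE, edgeR adjusted p = 6.76e-14), from 228 ± 15.6 to 152 ± 5.09 CPM (SD, n = 3 each). Counts per gene do not separate the unspliced XBP1 mRNA from the form spliced by IRE1, so they do not show the activity of the branch. The processed pseudogene XBP1P1 had 12 counts over all libraries against 22636 for XBP1.

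HERPUD1 encodes a membrane protein of the ERAD ubiquitin ligase complex and is a well-known target of the unfolded protein response (chromosome 16, 56932048 to 56944863, plus strand). It was at 30, 30.7 and 28.4 CPM in shCtrl and at 19.3, 19.9 and 20.7 CPM in shRBM39, so that no shRBM39 library reached a shCtrl library. The mean dropped from 29.7 ± 1.18 to 20 ± 0.679 CPM (SD, n = 3 each), so that it fell by 32.8% (log2 fold change -0.57 ± 0.06 SE, edgeR adjusted p = 6.38e-10), in size close to the decrease of XBP1.

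DNAJB9, an ER-resident J-domain protein that attaches HSPA5 to IRE1 and is a classic target of spliced XBP1 (chromosome 7, 108569568 to 108574850, plus strand), was at 8.83, 7.49 and 9.3 CPM in shCtrl and 8.52, 7.84 and 7.54 CPM in shRBM39. The groups overlapped. The log2 fold change was -0.10 ± 0.10 SE with a normal 95% interval from -0.30 to 0.10 (edgeR adjusted p = 0.428), which does not show that the level was equal and leaves room for a decrease or an increase up to those limits. DNAJB9 rested on 135 to 189 counts per library, and its exons share 99 and 183 bases with PNPLA8 and THAP5 on the opposite strand.

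Levels were compared between genes on the deposited values scaled for merged exon length and library total (RPKM), which use library totals without TMM. In shCtrl the order from high to low was HSP90B1 (432 ± 14.6 RPKM), CALR (418 ± 21.5), PDIA4 (153 ± 9.28), CANX (144 ± 0.706), HSPA5 (103 ± 8.15), XBP1 (78.6 ± 4.89), SDF2L1 (31.1 ± 2.05), HERPUD1 (6 ± 0.246), DNAJB9 (3.14 ± 0.335) and ERN1 (2.64 ± 0.155 RPKM, all SD, n = 3). The libraries of HSP90B1 and CALR overlapped, as did those of PDIA4 and CANX, and all other neighbours in the order were separate. In shRBM39 CALR was highest with 756 ± 21.8 RPKM, ahead of HSP90B1 with 487 ± 17.7 RPKM, and HSPA5 (174 ± 8.88 RPKM) stood above CANX (119 ± 2.34 RPKM). PDIA4 was again the third with 234 ± 3.82 RPKM. XBP1 (48.2 ± 1.52 RPKM) and SDF2L1 (46.2 ± 1.8 RPKM) then overlapped, whereas in shCtrl the level of XBP1 had been clearly above that of SDF2L1. HERPUD1 (3.7 ± 0.123 RPKM), DNAJB9 (2.69 ± 0.175 RPKM) and ERN1 (0.859 ± 0.0386 RPKM) again closed the order without overlap. Together the 10 genes took 0.512% to 0.55% of the counts of a shCtrl library and 0.663% to 0.685% of the counts of a shRBM39 library.

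**Figure D3:**
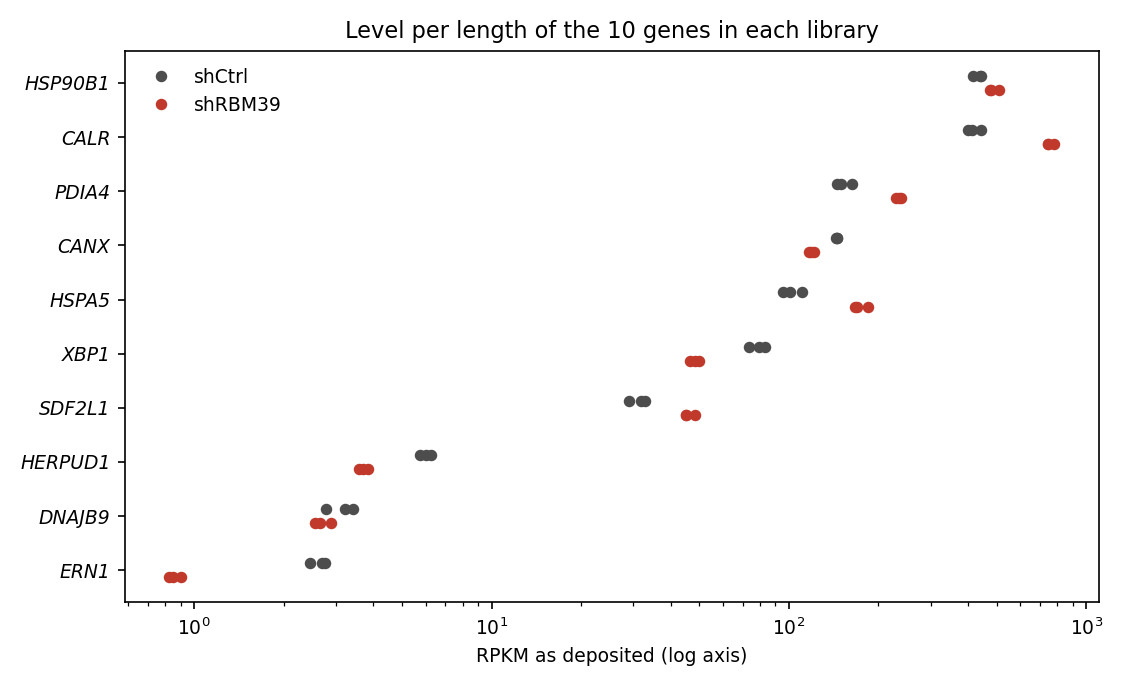
RPKM of the 10 genes in each library, on a logarithmic horizontal axis, with the genes ordered by their mean in shCtrl and the groups drawn in separate colours. Levels span from 0.859 RPKM (ERN1, mean of shRBM39) to 756 RPKM (CALR, mean of shRBM39), and CALR and HSPA5 move past HSP90B1 and CANX, respectively, in shRBM39.

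The divergence within the list can also be read as ratios of counts inside a library, which no scaling of libraries changes. The pairs were chosen after their values had been seen, so they are described without a test. HSPA5 had 14.9, 12.4 and 14.7 counts per count of ERN1 in shCtrl and 80.1, 70.5 and 67.9 in shRBM39, a log2 difference of 2.38. The mRNAs of HSPA5 and ERN1 were therefore farther apart in every shRBM39 library than in any shCtrl library. HSPA5 over XBP1 went from 1.73, 1.55 and 1.78 to 4.92, 4.34 and 4.71 (log2 difference 1.47). For the lectin chaperones, CALR over CANX was 1.33, 1.21 and 1.24 in shCtrl and 2.8, 2.78 and 2.72 in shRBM39 (log2 difference 1.14). Ratios of different genes in counts depend on gene length, so only their change between libraries is meaningful. The folding enzyme PDIA4 against the ERAD component HERPUD1 gave 17.3, 14.7 and 16.6 in shCtrl and 42.1, 39.7 and 38.8 in shRBM39 (log2 difference 1.32). HSPA5 over its co-chaperone DNAJB9 gave 47.8, 47.4 and 40.5 in shCtrl and 87.8, 87.2 and 92.1 in shRBM39 (log2 difference 0.98).

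**Figure D4:**
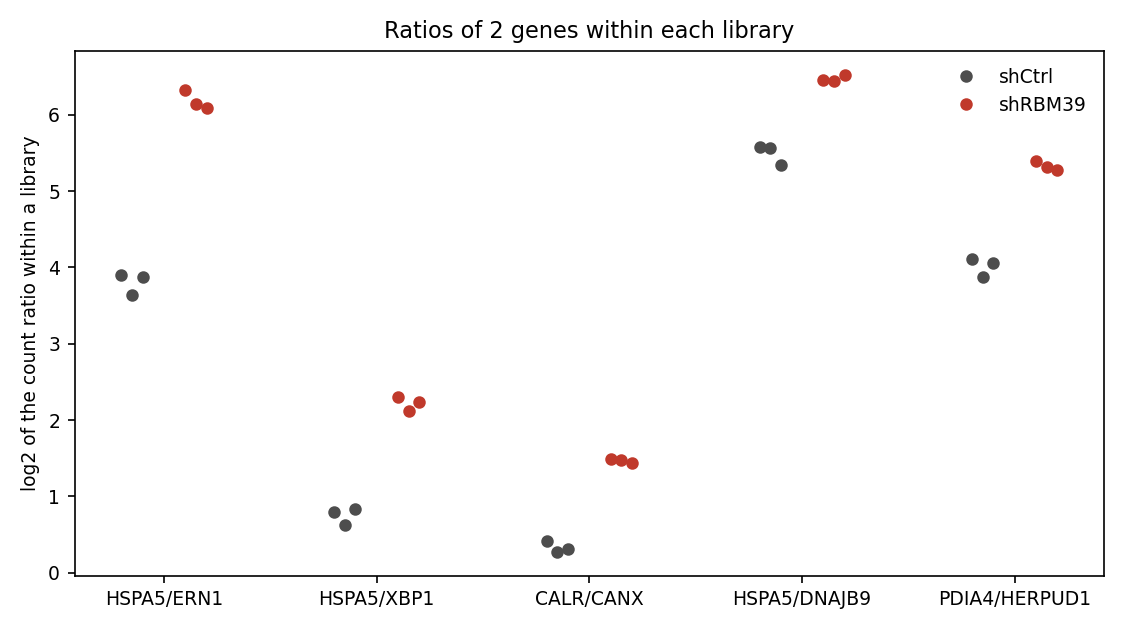
Ratio of the counts of 2 genes within each library, as log2, for 5 pairs of the 10 genes, with 3 libraries per group. In every pair the shRBM39 libraries lie above the shCtrl libraries, by a log2 difference of 0.98 (HSPA5 over DNAJB9) to 2.38 (HSPA5 over ERN1).

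Within groups the 10 genes varied little, with coefficients of variation of 1.25% to 11% in shCtrl and 1.37% to 6.34% in shRBM39. shCtrl replicate 1 was the highest of its group for 7 of the 10 genes and shRBM39 replicate 1 for 6, in both cases including HSPA5, PDIA4, SDF2L1, CALR and CANX. Leaving out any library kept every call and direction among the 10 genes. The log2 fold change of HSPA5 then ran from 0.83 to 0.96, that of CALR from 0.94 to 1.04 and that of ERN1 from -1.54 to -1.46. The pattern most like that of HSPA5, by the root mean square difference of log2 CPM relative to the shCtrl mean over the 6 libraries, was that of MANF (0.04), an ER stress-induced secreted factor, followed by LAMTOR4 and FKBP4 (both 0.05), out of 3655 genes averaging 50 CPM or more. Their log2 fold changes were 0.85, 0.88 and 0.89. Centred on the shCtrl mean, the measure mostly compares the size of the change, so this likeness does not show shared regulation.

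Other genes of the pathway were described by lists, each read against the background of 59.1% called, 29.2% higher and 29.9% lower. Of 24 further folding genes, 17 passed, 12 higher and 5 lower, with a median log2 fold change of 0.15. With library totals alone 10 were higher and 7 lower, and the median was 0.03. The highest were CRELD2 (1.02 ± 0.05 SE), which is induced by ER stress, GANAB (a 2-fold rise, ± 0.04 SE on the log2 scale), the catalytic subunit of glucosidase II, which trims the sugars that CALR and CANX recognise, and MANF (0.85 ± 0.04). CRELD2 was at 41.1, 39.8 and 38.4 CPM in shCtrl and 83.4, 78.1 and 80 CPM in shRBM39 (edgeR adjusted p = 1.98e-19), and GANAB at 145, 143 and 136 CPM and 288, 286 and 273 CPM (edgeR adjusted p = 2.48e-21). Both genes were thus near a doubling, like CALR. The lowest were DNAJC1 (-0.37), CLGN (-0.36), a testis-enriched homolog of CANX, and DNAJC10 (-0.32, or -0.17 with the correction for GC content and gene length). The call of CLGN was lost with DESeq2 (adjusted p = 0.0556).

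Among the other sensors, proteases and factors of ER stress, 9 of 10 were tested and 6 passed, 1 higher and 5 lower. The median was -0.12, or -0.24 with library totals alone. The higher gene was that of the ligase RTCB, and the lower genes included that of the protease MBTPS1 (-0.26 ± 0.04 SE). CREB3L2, a membrane-bound factor cleaved like ATF6, was at 41.5, 38.9 and 35.7 CPM in shCtrl and 11.4, 14.1 and 12.2 CPM in shRBM39, a log2 fold change of -1.63 ± 0.07 SE (edgeR adjusted p = 9.86e-20). This was close in size to the decrease of ERN1. CREB3L1 (-0.84 ± 0.22, or -0.30 on the log2(RPKM + 1) scale, at 1.07 to 3.2 CPM) and ATF6 (-0.39 ± 0.07) also fell, ATF6 from 23.6, 21.4 and 20.4 to 16, 17.3 and 16.9 CPM. RTCB, the ligase that rejoins the XBP1 mRNA after IRE1 has cut it, rose from 126, 116 and 124 to 151, 154 and 149 CPM (0.31 ± 0.04 SE, edgeR adjusted p = 4.12e-08), or by 0.18 with library totals alone. EIF2AK3, the gene of PERK, had a log2 fold change of -0.01 ± 0.07 SE, of either sign when libraries were left out, and did not pass (edgeR adjusted p = 0.9), with 14.37% of its exon bases shared with AC104134.2 on the opposite strand. ERN2, the paralog of ERN1, had at most 10 counts in a library and was not tested.

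Among ERAD genes more fell than rose. Of 20 genes, 19 were tested and 15 passed, 6 higher and 9 lower (median -0.15), or 3 higher and 12 lower with library totals alone. The mannosidase-like proteins that mark glycoproteins for degradation fell together, EDEM1 by a log2 fold change of -0.76 ± 0.09 SE, EDEM3 by -0.69 ± 0.08 and EDEM2 by -0.44 ± 0.08. EDEM1 went from 14.4, 14.6 and 17.4 to 8.98, 9.47 and 8.98 CPM (edgeR adjusted p = 4.14e-09), a decrease of the same direction as that of HERPUD1. UFD1 (0.79 ± 0.04) and VCP (0.49 ± 0.04), which pull ubiquitylated protein out of the membrane, and the ligase SYVN1 (0.28 ± 0.04, or 0.16 with library totals alone) rose. SYVN1 shares 398 exon bases on its own strand with FAU, a gene of higher counts, and its value is uncertain for that reason. DERL3 had at most 13 counts in a library and was not tested.

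For translocation into the ER, signal peptide cleavage and N-glycosylation, 15 of 22 genes passed, 11 higher and 4 lower (median 0.13), a split that became 8 higher and 8 lower with library totals alone. The highest were SEC11A (0.50), SPCS2 (0.40), both of the signal peptidase, and SEC61B (0.35, or 0.23 with library totals alone), a subunit of the translocation channel. SEC63, the J-domain protein that recruits HSPA5 to the channel, stood apart from the rest with 260, 240 and 242 CPM in shCtrl and 133, 131 and 134 CPM in shRBM39. Its log2 fold change was -0.90 ± 0.04 SE (edgeR adjusted p = 6.54e-20), followed by SRPRA (-0.32) and SSR1 (-0.31).

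The mRNAs of ATF4 and its targets, which lie downstream of PERK and other kinases, were lower throughout. All 10 genes of this list fell and passed, with log2 fold changes from -2.11 to -0.43 and a median of -1.13. Over all tested genes 29.9% were called lower. The list was chosen with earlier results of these data known, so its count is a description. All 10 also fell under each scaling tried. Counts do not measure the synthesis of ATF4 protein, so they do not show the activity of this arm. DDIT4 (-2.11 ± 0.07 SE), ASNS (-2.08 ± 0.07) and TRIB3 (-1.73 ± 0.06) fell most, ATF4 itself by -0.43 ± 0.04, from 900, 928 and 926 to 637, 714 and 700 CPM. DDIT3, the gene of the stress factor CHOP, had 32.7, 34.7 and 31.5 CPM in shCtrl and 12.6, 15.9 and 14.2 CPM in shRBM39 (edgeR adjusted p = 1.45e-16). HSPA5 and DDIT3, often used side by side as readouts of ER stress, thus moved in opposite directions. Exons of DDIT4 and DDIT3 share 41.16% and 28.04% of their bases with RP11-442H21.2 and MARS on the opposite strand, with the strand setting of the counting unknown.

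Cytosolic heat shock chaperones, which respond to unfolded protein outside the ER, all rose and passed, 10 of 10 with a median log2 fold change of 0.72. With library totals alone 9 of 10 passed, all of them higher. Over all tested genes 29.2% were called higher. This list too was chosen with earlier results of these data known. HSP90AA1 rose most (1.63 ± 0.05 SE), from 2321, 2006 and 2164 to 6424, 6446 and 7210 CPM (edgeR adjusted p = 5.61e-25), followed by HSPA1A (1.05 ± 0.06), whose reads may be split with the nearly identical HSPA1B, and DNAJA1 (0.96 ± 0.04). HSP90AA1, a gene of cytosolic Hsp90, thus changed by more than its ER paralog HSP90B1 at 0.30, a difference that was not tested. The more abundant cytosolic HSP90AB1 rose less than HSP90AA1 (0.55 ± 0.04 SE), from a mean of 3819 CPM in shCtrl to 5595 CPM in shRBM39. In shRBM39 HSP90AA1 was the higher of these 2, at a mean of 6693 CPM.

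**Figure D5:**
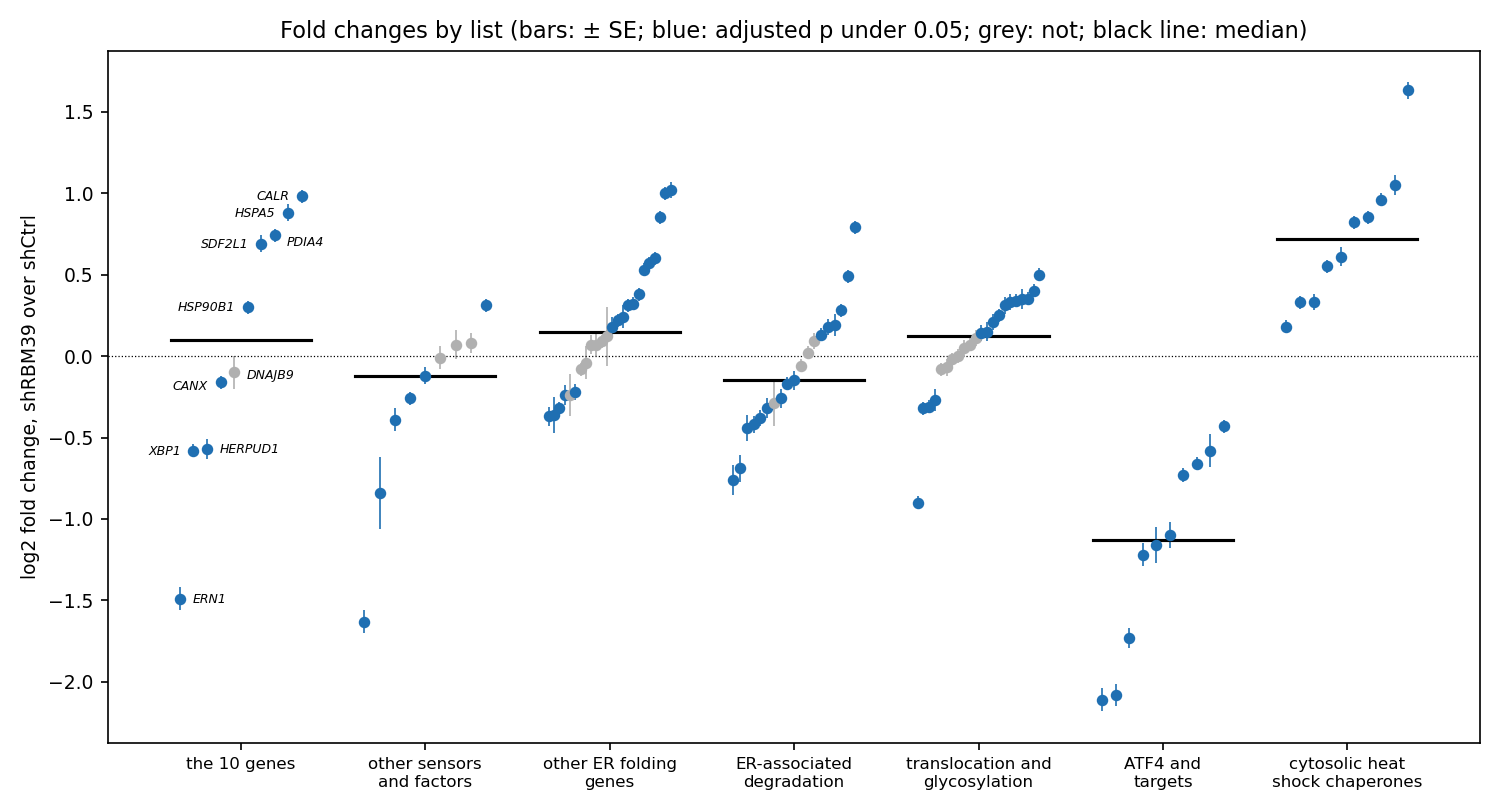
Log2 fold change of shRBM39 over shCtrl for the 10 genes and for the tested genes of 6 further lists, with bars for ± SE, blue for an edgeR adjusted p under 0.05, grey for the rest, and a black line at each list's median. The 10 genes spread from -1.49 (ERN1) to 0.98 (CALR), whereas all points of the ATF4 list lie below 0 and all points of the cytosolic chaperones above it. All lists were chosen with earlier results of these data known.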

How the data were processed

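mRNA of 6 SW480 libraries (3 shCtrl, 3 shRBM39, grouped by sample title) was sequenced from stranded libraries with unique identifiers. Raw counts for each symbol, with merged exon lengths, were deposited by the authors together with RPKM values that were recomputed from those counts and add no measurement. Columns named NC were taken to be shCtrl, since the series has no other control. The submitters' processing notes name Trimmomatic 0.36, STAR 2.5.3a, featureCounts of Subread 1.5.1, edgeR 3.12.1 and GRCh38. The strand setting, the treatment of multi-mapped reads and the collapsing of identifiers are not given in the sources used here and affect overlapping genes and paralogs most. Of the exons listed for the 10 genes, 79.8% were identical in GENCODE v44. The deposited splicing tables hold the authors' own comparison and were not used.

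edgeR 4.0.16 in R 4.3.3 was used on the counts. Genes were kept by filterByExpr, libraries were scaled by TMM, and the quasi-likelihood test compared the groups without covariates. P-values were adjusted by Benjamini-Hochberg over the 18243 genes tested, with a threshold of 0.05. Standard errors came from the log2 fold change and its F statistic. The biological coefficient of variation was 0.035. The fits were also run on simulated counts with the same spread for every gene and few changed genes. These data hold far more called genes, so the simulation could not check the scaling. Total counts per library were 18042924 to 20428901. Alternatives were DESeq2 1.42.0, other scalings and filters, limma-trend 3.58.1 on log2(RPKM + 1) and log2(RPKM + 0.1) for genes of at least 0.5 RPKM in 3 libraries, the replicate number as a block, each library left out, an adjusted p of 0.01, a null of absolute log2 fold changes up to 0.5 and, added after the data were seen, a correction for GC content and gene length and ratios within a library.

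The 10 genes and all lists were chosen with earlier results of these data known. From each other list, of the called genes without overlap between groups, the 3 with the largest rise and the 3 with the largest fall were named, with EIF2AK3, ERN2 and DERL3 as genes that did not pass or were not tested. ATF4, DDIT3, MBTPS1 and HSP90AB1 were added after their values had been seen. SELENOS and UFD1 carry the symbols VIMP and UFD1L in the table. Promoter sequences are from RefSeq (GRCh38.p14).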

Additional observations from a re-analysis of the deposited data

How the results depend on the processing

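A null of absolute log2 fold changes up to 0.5 moved the counts of genes called, over all genes, the 10 genes and all lists but ATF4, by over 1.5 times: 2232 genes in all, 5 of the 10 genes (1 of them lower), 1 sensor or factor, 4 folding, 3 ERAD and 1 translocation gene and 5 cytosolic chaperones passed. There the adjusted p of XBP1 was 0.062 and that of HERPUD1 0.229. Of 170 values of the 10 genes under 17 alternatives, 166 kept direction and side of the threshold, and the other 4 (HSP90B1, XBP1, HERPUD1, CANX) lost the call under that test. Library totals alone moved ERAD genes higher from 6 to 3 and translocation genes lower from 4 to 8. Over the named genes whose fold changes were followed through the alternatives, 798 values kept their side of the threshold, 34 lost it, 7 gained it and 9 changed sign. None of these 9 was in a gene that had passed. EIF2AK3 ran from -0.06 to 0.04 over the leave-one-out fits, above 0 in 3. SERP1 was at -0.01 with library totals and at -0.01 and -0.02 in the RPKM fits, and HYOU1 at -0.03 in the same fits. HSPA5 ranged from 0.76 to 0.96, CALR from 0.86 to 1.04, PDIA4 from 0.62 to 0.80, SDF2L1 from 0.55 to 0.75, HSP90B1 from 0.17 to 0.33, CANX from -0.28 to -0.14, XBP1 from -0.71 to -0.53, HERPUD1 from -0.70 to -0.54, ERN1 from -1.62 to -0.97 and DNAJB9 from -0.22 to -0.03. All genes called numbered 8539 with DESeq2, 11146 with library totals, 9025 at 0.01, 10854 with the GC and length correction and 10138 to 10263 without a library, against 10790. Of the calls, 49.4% were higher with TMM, but 33.9% with library totals alone and 34.3% and 34.4% in the RPKM fits, so directions of small changes depend on the scaling.

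Over all tested genes same-numbered libraries did not deviate together (correlations 0.00612, -0.0282 and 0.000114). Such correlations cannot show whether the samples of a number were paired. With the replicate number as a block 10810 genes and 9 of the 10 genes were called, and the log2 fold change of HSPA5 was 0.88. At this depth DNAJB9, with 135 to 189 counts per library, was the least precise of the 10 genes.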

Other observations

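Apart from the 10 genes, 20 genes had an ERSE in a promoter window, of which 11 were tested. In edgeR's quasi-likelihood test 5 of these were higher in shRBM39, 0 were lower and 6 did not pass, with a median log2 fold change of 0.12, about the size by which library totals alone shift all genes (-0.124). Those that rose were CRELD2 (1.02), PDIA6 (0.60), a disulfide isomerase that shares 25.19% of its exon bases with ATP6V1C2 on the opposite strand, FICD (0.41), the enzyme that AMPylates HSPA5, TRIM5 (0.28) and EIF2A (0.24). FICD was at a mean of 3.53 CPM in shCtrl and 4.68 CPM in shRBM39, and its call was lost with library totals alone (adjusted p = 0.106), with DESeq2 (0.115), in the RPKM fits (0.225 and 0.229) and without shCtrl replicate 3 (0.23 on the log2 scale, adjusted p = 0.201) or shRBM39 replicate 3 (adjusted p = 0.0785). TRIM5 lost its call with library totals alone (0.16, adjusted p = 0.0731) and EIF2A dropped to 0.11. The stress-associated ER protein SERP1 had a log2 fold change of 0.11 ± 0.05 SE and did not pass (adjusted p = 0.0718), although it did without shCtrl replicate 1 or shRBM39 replicate 2 (0.16 in both), nor did ERO1B at 0.12 ± 0.18 SE (adjusted p = 0.577). For ERSE-II, 12 of 17 further genes were tested, 7 higher, 3 lower and 2 not passing, with a median of 0.13. HYOU1, the large Hsp70-related chaperone of the ER, was among the latter at 0.09 ± 0.04 SE (adjusted p = 0.0666), with 305 CPM in shCtrl and 325 CPM in shRBM39. It passed without the filter on low counts, with the GC and length correction (0.14), with the replicate block (adjusted p = 0.0428) and without shCtrl replicate 1 (0.15) or shRBM39 replicate 3 (0.13), and was at -0.03 with library totals alone. NUCB1 fell by 0.16 on the log2 scale, or by 0.28 with library totals alone. CNKSR1 (-0.26) and GYS1 (-0.19) were the other ERSE-II genes that fell. The largest rises among ERSE-II genes were those of CAMTA1 (0.31), PLS3 (0.29) and RAD9A (0.27). This search was made after the fold changes had been seen, and the 2 sets are small. The background of calls is 29.2% higher and 29.9% lower, so the counts are a description. CRELD2, PDIA6, ERO1B and HYOU1 are also in the list of 24 further folding genes and were already counted there.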
